A study of Drosophila melanogaster with 2 samples.

Results

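The cytochrome P450 genes of Drosophila melanogaster were described in poly(A)-selected RNA of whole embryos. Members were the genes whose symbol is Cyp followed by digits, lower-case letters and digits, such as Cyp4g1, and they comprised 80 of the 17301 genes in the files. Each gene's level is the sum of the FPKM values (fragments scaled to each kilobase of transcript and each 1000000 mapped) of its annotated transcripts. The symbol rule kept out Cyp1, a cyclophilin gene that is no P450, and 14 entries of P450 genes with other symbols: phm, dib, sad, shd, spo and spok, the copies Cyp12d1-d and Cyp12d1-p, and entries with a pseudogene suffix.

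The study set embryos carrying an RNA interference construct against Lim3, a LIM-homeodomain gene, beside embryos of a control cross, with 1 library of 1 pooled embryo collection for each. Embryos of both crosses were collected over 0 to 16 h, their parents were kept at 25 °C, and both carried the driver P{en2.4-GAL4}e22c, 1 copy of the transgene P{tGPH}4, and y1 and w*, with v1 listed for part of the embryos. The first genotype added P{TRiP.JF02125}attP2, and the second P{y+t7.7=CaryP}attP2 at the same landing site with no interference construct. The series text describes the driver as one for early development, and it is known as a driver of the embryonic epidermis, so RNA of a whole embryo also comes from cells in which it may not act. The driver stock also held the third-chromosome balancer TM3, Ser1, which the embryo genotypes do not list.

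Lim3 itself measured 18.5 FPKM in the library labelled knockdown against 5.81 FPKM in the control library. It was thus higher where the label names a knockdown, and that library is called by its label throughout. Whether an exchange of labels or something else lies behind this difference was not tested. Each difference below is therefore between the libraries, and its direction with respect to genotype may be the reverse. Where a pair of values is given, the library labelled knockdown comes first and the control library second. With 1 library a group, nothing below has a replicate check and no p-value is given. Depth, read from the value that 1 fragment takes, was about 33300000 fragments in the library labelled knockdown against about 22600000 in the control library. This estimate takes FPKM on full transcript length with no scaling between the libraries, which could not be checked. All 10 early patterning and maternal genes examined, bcd, nos, ftz and eve among them, were at 1 FPKM or more in both libraries. Of 15 larval and adult genes, 12 were below 1 FPKM in both, and Sgs5 and Sgs7, glue genes of the larval salivary gland, were listed at 0 in both.

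Cytochrome P450 enzymes are haem proteins that insert an oxygen atom into lipids, hormones and foreign compounds. Most sit in the endoplasmic reticulum and take electrons from the reductase Cpr, while those of the mitochondrial clan take them from ferredoxins. Insect P450s are sorted into a CYP2 and a mitochondrial clan, which hold most of the known enzymes of ecdysteroid metabolism, and CYP3 and CYP4 clans, which have expanded by tandem duplication. In the fly the family is known for ecdysone synthesis, for the inactivation of ecdysteroids, and for hydrocarbon synthesis in oenocytes.

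Of the 80 members, 50 reached 1 FPKM in the library labelled knockdown against 46 in the control library, or 62.5% and 57.5%. Among all genes the shares were 59.9% and 59.5%, so P450 genes were detected about as often as other genes. A total of 45 members reached 1 FPKM in both libraries and 51 in at least 1 of them, and these 51 are called measured. Cyp4p1, Cyp4p3, Cyp4s3, Cyp6g1 and Cyp12e1 reached it only in the library labelled knockdown, and Cyp9h1 only in the control library. Of all genes, 10359 reached it in the library labelled knockdown, 10301 in the control library and 10576 in at least 1 of them. The members closest above the limit in their higher library were Cyp6g1 at 1.04 FPKM, Cyp9h1 at 1.07 FPKM and Cyp4s3 at 1.12 FPKM. Those closest below it were Cyp6a14 at 0.925 FPKM, Cyp12a4 at 0.820 FPKM and Cyp28c1 at 0.595 FPKM.

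The family's RNA came from a minority of its genes. The members together reached 688 FPKM in the library labelled knockdown against 632 FPKM in the control library. The 5 highest members held 43.3% of the sum in each library, the 10 highest 61.9% and 63.6%, and the 20 highest 82.5% and 84.3%. Of the 10 highest members of each library, 9 were shared, and 17 of the 20 highest. Across the 80 members the log2(FPKM + 1) values of the libraries had a Pearson correlation of 0.984 and their FPKM a Spearman correlation of 0.983, beside a Pearson correlation of 0.988 across all genes. These values describe 2 libraries across genes, which are not replicates.

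**Figure D1:**
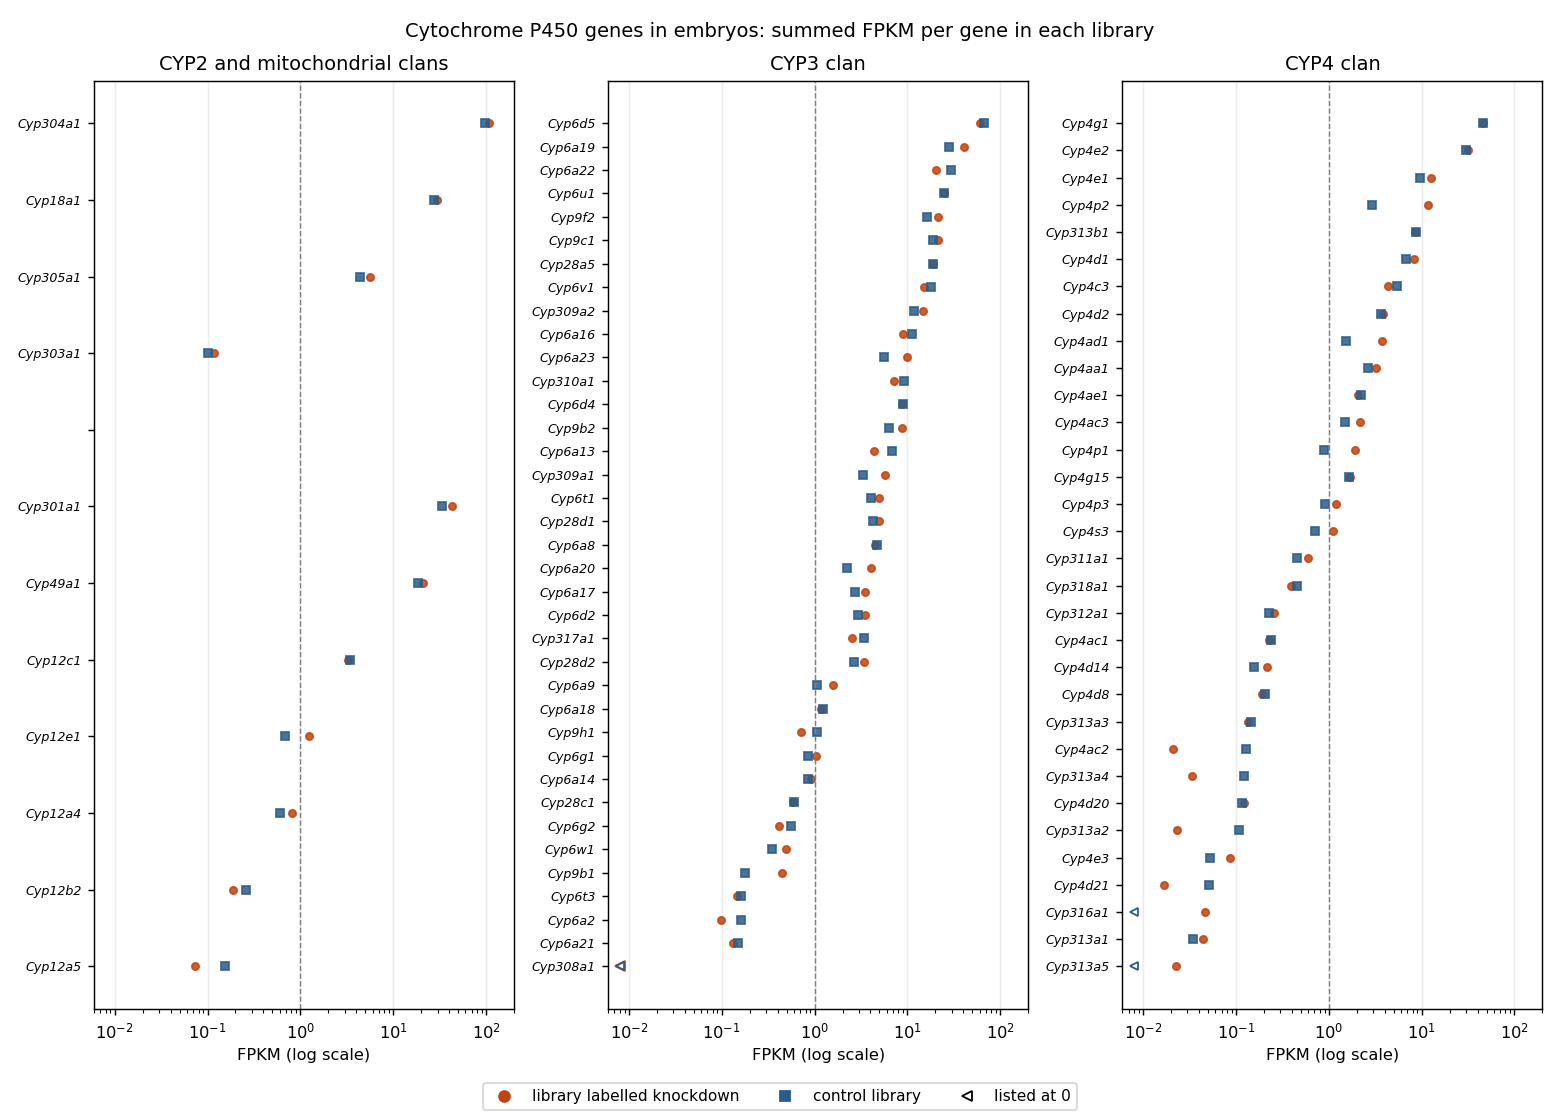
Summed FPKM of each of the 80 P450 genes on a log axis, by clan, in the library labelled knockdown (circles) and the control library (squares). Open triangles mark genes listed at 0, the dashed line marks 1 FPKM, and levels run from 107 FPKM for Cyp304a1 down to Cyp308a1, listed at 0 in both libraries.

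The CYP2 clan, with 4 members, held the highest P450 gene of the embryo. Cyp304a1 measured 107 FPKM in the library labelled knockdown against 96.9 FPKM in the control library, and made up 15.5% and 15.3% of the family's sum. Cyp18a1, which encodes the hydroxylase that inactivates 20-hydroxyecdysone, was at 29.7 and 27.5 FPKM. The files place it on the X chromosome, Release 5 bases 18582571 to 18587075. Cyp305a1 was at 5.65 and 4.43 FPKM. Cyp303a1, required for the development of external sensory organs, was at 0.119 and 0.102 FPKM, on about 9 and 5 fragments. The clan thus spanned from the highest member to one near the detection limit, in the same order in both libraries.

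Of the 7 mitochondrial members, 2 were above 10 FPKM and the 5 Cyp12 genes below 5 FPKM in both libraries. Cyp301a1, which acts in the formation of the adult cuticle, measured 43.0 FPKM in the library labelled knockdown against 33.6 FPKM in the control library, and its exons overlap those of Ak6 on the other strand. Cyp49a1 was at 21.0 and 18.6 FPKM. Both lie far above the Cyp12 genes. The highest of these was Cyp12c1 at 3.22 and 3.43 FPKM, and Cyp12e1 was at 1.23 and 0.689 FPKM. The lowest were Cyp12b2 at 0.190 and 0.258 FPKM and Cyp12a5 at 0.0739 and 0.152 FPKM. The genes that carry electrons to this clan were expressed too. The ferredoxin reductase gene dare stood at 15.2 and 16.5 FPKM. The ferredoxin gene Fdxh, now named Fdx1, stood at 28.0 and 30.2 FPKM, and CG1319, now named Fdx2, at 100.3 and 119 FPKM.

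The CYP3 clan was the largest, with 37 members, of which 28 were measured. It held 48.0% of the family's total in the library labelled knockdown against 50.3% in the control library. Cyp6d5 was its highest member at 60.9 and 66.8 FPKM, the second highest P450 gene in both libraries. Among the Cyp6a genes, which lie on 2R except Cyp6a16 on 2L and Cyp6a18 on 3R, levels varied. Cyp6a19 was at 40.7 and 27.7 FPKM, and Cyp6a22 at 20.3 and 29.2 FPKM. These genes were thus close in the control library, and Cyp6a19 was the higher in the other. Cyp6u1, whose exons overlap those of Ufsp1 on the same strand, was at 24.8 FPKM in both libraries. Among the Cyp9 genes Cyp9f2 was at 21.4 and 16.3 FPKM and Cyp9c1 at 21.1 and 19.0 FPKM, close to each other in the library labelled knockdown. Cyp28a5 was the highest Cyp28 gene, at 18.6 and 18.7 FPKM.

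A middle tier of this clan lay between 3 and 20 FPKM in both libraries. Cyp6v1 was at 14.9 and 18.0 FPKM and Cyp6a16 at 9.03 and 11.2 FPKM, both lower in the library labelled knockdown, though Cyp6v1 lay on the other side after rescaling to an equal FPKM sum. Cyp310a1 at 7.13 and 9.18 FPKM and Cyp6a13 at 4.41 and 6.77 FPKM were on the same side. The neighbours Cyp309a2 and Cyp309a1 were on the other side, the first with 14.6 and 11.7 FPKM and the second with 5.72 and 3.35 FPKM, as were Cyp6a23 at 9.91 and 5.63 FPKM and Cyp9b2 at 8.78 and 6.31 FPKM. Cyp6d4 was near equality at 8.68 and 8.87 FPKM. Genes of this clan known from adult behaviour were lower. Cyp6a20, which affects aggression between males, was at 4.09 and 2.22 FPKM, and Cyp6a17, which affects temperature preference, at 3.53 and 2.75 FPKM. Cyp6t3, which acts in ecdysone synthesis in the larval ring gland, was at 0.145 and 0.163 FPKM, below the limit in both libraries. Cyp308a1 was listed at 0 in both.

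The CYP4 clan was divided between measured genes and genes below the 1 FPKM limit. Of its 32 members 16 were measured, beside 10576 of all 17301 genes, and 16 were below 1 FPKM in both libraries. Not all of the latter were near detection, as Cyp311a1 had about 30 and 15 fragments. Cyp4g1, which makes cuticular hydrocarbons in the oenocytes by removing a carbon from fatty aldehydes, measured 46.3 FPKM in the library labelled knockdown against 45.7 FPKM in the control library. It was the third highest P450 gene in both. Its paralog Cyp4g15, known from the nervous system, was at 1.69 and 1.64 FPKM. Cyp4e2 was at 31.4 and 30.4 FPKM, on 2R, Release 5 bases 4332065 to 4334669, and Cyp4e1, whose exons overlap those of Mal-A1 on the other strand, at 12.6 and 9.66 FPKM. Cyp313b1 was at 8.40 and 8.62 FPKM, while the other 5 Cyp313 genes were below 0.15 FPKM in both libraries. Cyp4d1 was at 8.28 and 6.80 FPKM and Cyp4c3 at 4.30 and 5.43 FPKM. Cyp4d21, also known as sxe1 and tied to male courtship in the adult, was at 0.0170 and 0.0512 FPKM, on about 1 and 2 fragments.

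The 29 members below 1 FPKM in both libraries were left out of the size rule. They ranged from Cyp6a14, on about 63 and 36 fragments, to Cyp308a1, listed at 0 in both. Of them 6 were below 0.1 FPKM in both, namely Cyp4e3, Cyp4d21, Cyp316a1, Cyp313a1, Cyp313a5 and Cyp308a1. Cyp316a1 and Cyp313a5 were listed at 0 in the control library and at 0.0465 and 0.0229 FPKM in the other. For a transcript of 1779 nt, the median length of the members' longest transcripts, 1 fragment was worth about 0.0169 FPKM in the library labelled knockdown against 0.0249 FPKM in the control library. Differences between the libraries were not detectable at this depth for these 6 genes.

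The genes that supply electrons to P450s were all expressed and differed little. Cpr, the reductase that serves the endoplasmic reticulum enzymes, measured 89.6 FPKM in the library labelled knockdown against 106 FPKM in the control library. Cyt-b5 was at 396 and 407 FPKM and Cyt-b5-r at 11.0 and 10.5 FPKM. Of the 6 partner genes found, none differed by 2-fold, and 5 were lower in the library labelled knockdown, all of which lay on the other side after rescaling to an equal FPKM sum. The P450 genes of ecdysone synthesis that the symbol rule leaves out were lower than Cyp18a1, with phm, now named phtm, at 7.21 and 8.98 FPKM, spo at 5.70 and 8.18 FPKM and dib at 3.39 and 4.50 FPKM. The other ecdysone genes were sad at 2.22 and 2.01 FPKM, shd at 2.45 and 2.69 FPKM and spok at 0.493 and 0.680 FPKM. Of the other entries left out, Cyp12d1-p was at 4.05 and 4.85 FPKM and Cyp12d1-d at 1.05 and 1.14 FPKM, and these are near-identical copies that can share fragments. Cyp9f3Psi-RA was at 4.09 and 3.03 FPKM and Cyp6t2Psi at 0.138 and 0.140 FPKM. The remaining entries with a pseudogene suffix were listed at 0, among them Cyp9f3Psi, now named Cyp9f3.

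The comparison of the libraries asks whether P450 levels differed in embryos labelled as carrying the Lim3 construct. Differences are log2((knockdown + 1)/(control + 1)), which understates those of low genes, and a gene passed the size rule with an absolute difference of at least 1. Of the 51 measured members 1 was at least 2-fold higher in the library labelled knockdown, and 0 were at least 2-fold lower. Among all 10576 measured genes 1.02% were higher and 1.37% lower by the same rule, so the members' counts were near this background. Among measured genes with a transcript of at least 200 nt, as all members have, the shares were 0.587% and 0.742%. With a pseudocount of 0.1 in place of 1, Cyp4ad1 and Cyp4p1 also passed as higher. The number over all 10576 measured genes then rose from 108 to 177. With the pseudocount of 1, 45 of the 51 members differed by less than 1.5-fold, beside 9958 of the 10576 measured genes.

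**Figure D2:**
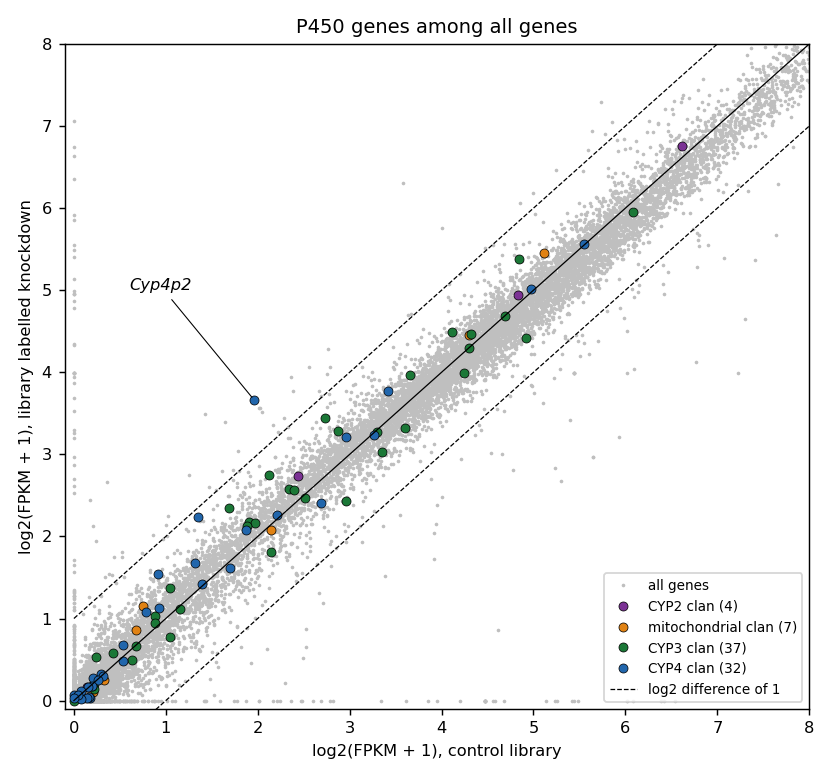
P450 genes, coloured by clan, among all genes (grey). Both axes give log2(FPKM + 1), for the control library on the x axis and the library labelled knockdown on the y axis, and dashed lines mark a log2 difference of 1. Genes above 8 on either axis are outside the frame. Cyp4p2 is the only P450 gene beyond a dashed line.

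Cyp4p2, a gene of the Cyp4p group on 2R, was the member past the size rule. It measured 11.7 FPKM in the library labelled knockdown against 2.90 FPKM in the control library, and the log2 difference was 1.70. The ratio of 4.02 stood on about 690 and 116 fragments, with a 95% counting interval of 3.30 to 4.94. Cyp4p2 ranked 17th among P450 genes in the first library and 35th in the second. Its neighbours Cyp4p1 and Cyp4p3 lay on the same side without passing the rule. Cyp4p1 was at 1.92 and 0.881 FPKM (log2 0.64), and Cyp4p3 at 1.19 and 0.900 FPKM (log2 0.20). The counting interval of the ratio was 1.47 to 3.33 for Cyp4p1 and 0.860 to 2.06 for Cyp4p3. The 3 copies are related in sequence, and how fragments were divided among them is not given in the sources used here.

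Some midgut digestive enzyme and heat shock genes were higher in the same library as Cyp4p2. The marker lists below were chosen with earlier results of these data known. Among all measured genes 43.5% lay above 0 and 1.02% passed the size rule as higher. After rescaling to an equal FPKM sum, 78.8% of all genes lay above 0. Of 20 digestive enzyme genes 10 were measured, all 10 lay above 0 and 5 passed the size rule, and the 20 summed to 122 and 77.2 FPKM. Of 11 heat shock genes 8 were measured, 7 lay above 0 and 3 passed the rule, with sums of 467 and 420 FPKM. Late cuticle genes had 8 of 8 above 0 and none past the rule, with sums of 923 and 714 FPKM, and early genes 5 of 10 above 0, with sums of 187 and 193 FPKM. The 2 measured of 5 Malpighian tubule genes lay above 0, with sums of 12.3 and 10.7 FPKM over the 5, and Uro was at 0.108 and 0.124 FPKM. Of 4 fat body genes found 2 were measured and 1 of them lay above 0, with sums of 187 and 171 FPKM. The 15 larval and adult genes summed to 10.3 and 5.65 FPKM, and of the 3 measured among them 1 lay above 0 and 2 below. The accessory gland gene SP was at 5.71 and 1.37 FPKM, on about 42 and 7 fragments, and another, Acp36DE, at 0.639 and 1.20 FPKM, on about 61 and 77. The part of these tissues, of stage and of depth in the Cyp4p2 difference was not tested, and in RNA of whole embryos fewer cells of a type and less RNA per cell cannot be told apart.

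The smaller differences of the measured members lay more often above 0 than below. Of 51, 34 were above 0, or 66.7%, against 43.5% of all measured genes. A gene that reached 1 FPKM in only 1 library is higher there by the limit itself. This held for 5 of the members in the library labelled knockdown and for 1 in the control library. The median was 0.16 (quartiles -0.04 and 0.33) against -0.04 over all measured genes, a gap of 0.21. After both libraries were rescaled to an equal FPKM sum, 45 of 51 members were above 0, against 78.8% of all genes. That scaling moved the median of all genes to 0.21 and that of the members to 0.40, a gap of 0.19. With no filter on low values the gap was smaller, at 0.074, with medians of 0.047 for members and -0.027 for all genes. In that setting 59.5% of members and 44.7% of all genes lay above 0. By clan, 3 of 3 measured CYP2 genes, 3 of 4 mitochondrial, 15 of 28 CYP3 and 13 of 16 CYP4 genes lay above 0 on the values as deposited. Of the CYP4 genes, Cyp4p1, Cyp4p3 and Cyp4s3 reached 1 FPKM only in the library labelled knockdown. Whether the clans differ was not tested.

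Counting error alone was smaller than many of these differences. The 95% counting interval of the ratio lay above 1 for 23 members, below 1 for 8 and held 1 for 20. The members counted include those that reached 1 FPKM in 1 library only. Among all measured genes 22.8% lay above 1 and 37.1% below 1. These intervals compare the fragments of 2 libraries and not the genotypes, since they leave out differences between embryo collections and library preparations. They also rest on the values as deposited. Rescaling to an equal FPKM sum raised each log2 ratio by 0.28. The log2 difference of Cyp6d5 then went from -0.13 to 0.15, and that of Cyp4g1 from 0.02 to 0.29. The largest ratios after that of Cyp4p2 were 2.39 (1.78 to 3.25) at Cyp4ad1, at 3.70 and 1.55 FPKM, and 2.18 at Cyp4p1, both short of the size rule because of the added 1 FPKM. Cyp6a23 followed among genes at 5 FPKM or more, with a ratio of 1.76 (1.51 to 2.06) and a log2 difference of 0.72. The lowest ratio was that of Cyp6a13, which was 1.53-fold lower in the library labelled knockdown (1.28 to 1.84; log2 -0.52). Cyp6a22 was 1.44-fold lower (1.33 to 1.56; log2 -0.50), and Cyp4g1 and Cyp6u1 had ratios of 1.01 (0.962 to 1.07) and 0.999 (0.923 to 1.08).

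**Figure D3:**
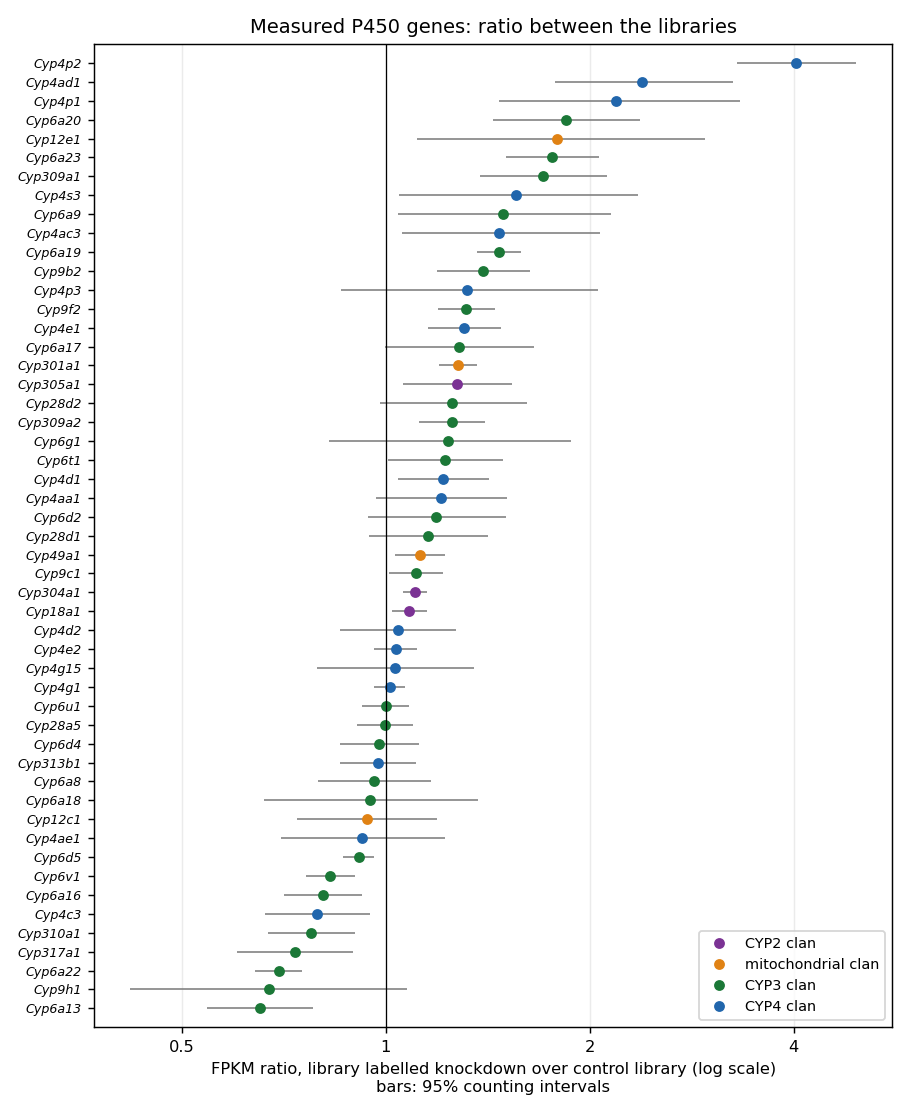
Plain FPKM ratio of the library labelled knockdown over the control library for the 51 measured P450 genes, on a log axis, with 95% counting intervals (bars) and clans in colour. The ratios run from 0.652 for Cyp6a13 to 4.02 for Cyp4p2, and the bars do not cover differences between embryo collections.

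Many P450 genes lie side by side, and neighbours often differed in level. With a gap of at most 10 kb in the Release 6 annotation, 41 members fell into 14 groups of 2 to 9 genes, and 39 stood alone. In the groups 24 of 41 members were measured, or 58.5%, and 27 of the 39 single genes, or 69.2%. The largest group, on 2R, held 9 genes, 8 of them measured. In it Cyp6a19 at 40.7 and 27.7 FPKM stood in the same group as Cyp6a21 at 0.133 and 0.148 FPKM, the latter on about 7 and 5 fragments. The highest gene of the group was Cyp6a19 in the library labelled knockdown, and Cyp6a22 at 29.2 FPKM in the control library. Cyp6a8, which hydroxylates lauric acid, was at 4.51 and 4.69 FPKM there, and Cyp6a9, whose exons overlap those of Cyp6a19 on the other strand, at 1.58 and 1.06 FPKM. Genes of this group also lay on different sides of 0, with log2 differences of -0.50 at Cyp6a22 and 0.72 at Cyp6a23.

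Other groups showed the same unevenness on a smaller scale. In the group of Cyp4ad1, Cyp4e2 and Cyp4e1 the highest gene was 8.49-fold above the lowest in the library labelled knockdown against 19.6-fold in the control library. In the pair Cyp9b1 and Cyp9b2 the first was at 0.447 and 0.180 FPKM and the second at 8.78 and 6.31 FPKM. All genes of 4 groups were below 1 FPKM in both libraries, among them the trio of Cyp313a5, Cyp313a2 and Cyp313a3. Cyp28d2 and Cyp28d1, by contrast, were close to each other, at 3.37 and 2.68 FPKM and at 4.92 and 4.26 FPKM. Measured genes in groups had a median log2 difference of 0.29 and single ones of 0.03, a split that was looked at after the values were seen and was not tested.

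**Figure D4:**
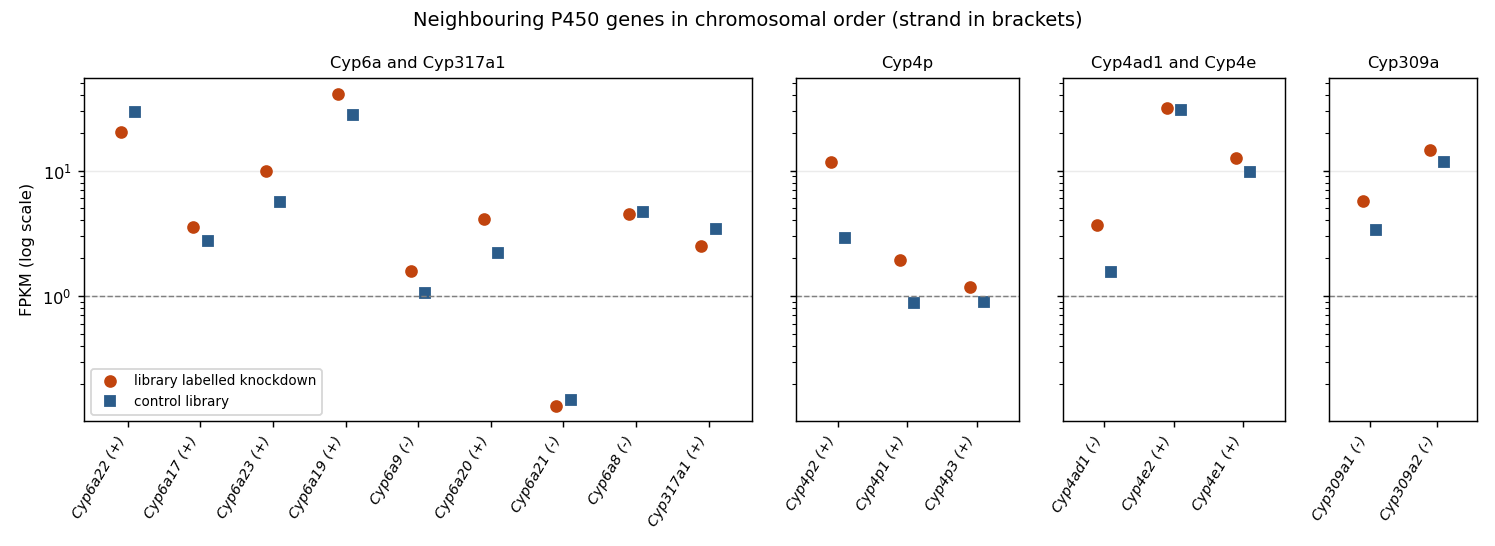
FPKM on a log axis of P450 genes in 4 chromosomal groups, in chromosomal order with the strand in brackets, in the library labelled knockdown (circles) and the control library (squares). In the largest group levels run from 0.133 FPKM for Cyp6a21 to 40.7 FPKM for Cyp6a19, and the 3 Cyp4p genes all lie higher in the library labelled knockdown.

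Most members have 1 annotated transcript. Of the 80, 55 had 1 transcript and 25 had more, 111 transcripts in all, and 7 members had more than 1 transcript at 1 FPKM or more. The authors' software divided fragments between transcripts that share exons, so the values below are estimates, and their intervals cover counting error only. Cyp18a1 was mostly its longer transcript of 3049 nt, FBtr0074610, at 27.7 FPKM in the library labelled knockdown against 22.4 FPKM in the control library, or 93.2% and 81.5% of the gene. The shorter one of 2199 nt, FBtr0074609, was at 2.03 and 5.08 FPKM, which is 2.50-fold lower (2.03 to 3.08). In the Release 6 annotation both encode the same 538 residues, and the shorter starts 298 nt further downstream and ends 552 nt earlier.

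Cyp6a22 and Cyp49a1 showed their transcripts at several levels. For Cyp6a22, FBtr0345526 was at 14.8 and 17.0 FPKM, FBtr0087450, which ends 240 nt earlier, at 4.74 and 10.5 FPKM, and the third, FBtr0339983, at 0.705 and 1.68 FPKM. The second was 2.22-fold lower in the library labelled knockdown (1.90 to 2.60). For Cyp49a1 the shortest transcript, FBtr0088312 with 10 exons, was the highest at 9.83 and 8.72 FPKM, or 46.9% and 46.8% of the gene. It starts 6432 nt downstream of the gene's start and encodes 415 residues, whereas the other transcripts encode 589. FBtr0088313 measured 2.31 FPKM in the library labelled knockdown against 0.00190 FPKM in the control library. That value is below 1 fragment, so no fold is given.

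The other members with several transcripts at 1 FPKM or more kept the order of their transcripts in both libraries except Cyp6v1. Cyp6u1 was highest as FBtr0345011, which has 2 exons in place of 3, at 13.5 and 12.6 FPKM. Cyp6v1 was mostly FBtr0345967 at 13.0 and 15.9 FPKM. Its other transcripts FBtr0344467 and FBtr0077276 had 1.48 and 0.877 FPKM and 0.484 and 1.23 FPKM respectively, so their order differed between the libraries. Cyp4d2 had FBtr0345609 at 2.04 and 2.16 FPKM and FBtr0070387 at 1.75 and 1.48 FPKM. Cyp317a1 had FBtr0087405 at 1.32 and 2.56 FPKM and FBtr0345873 at 1.18 and 0.841 FPKM.

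**Figure D5:**
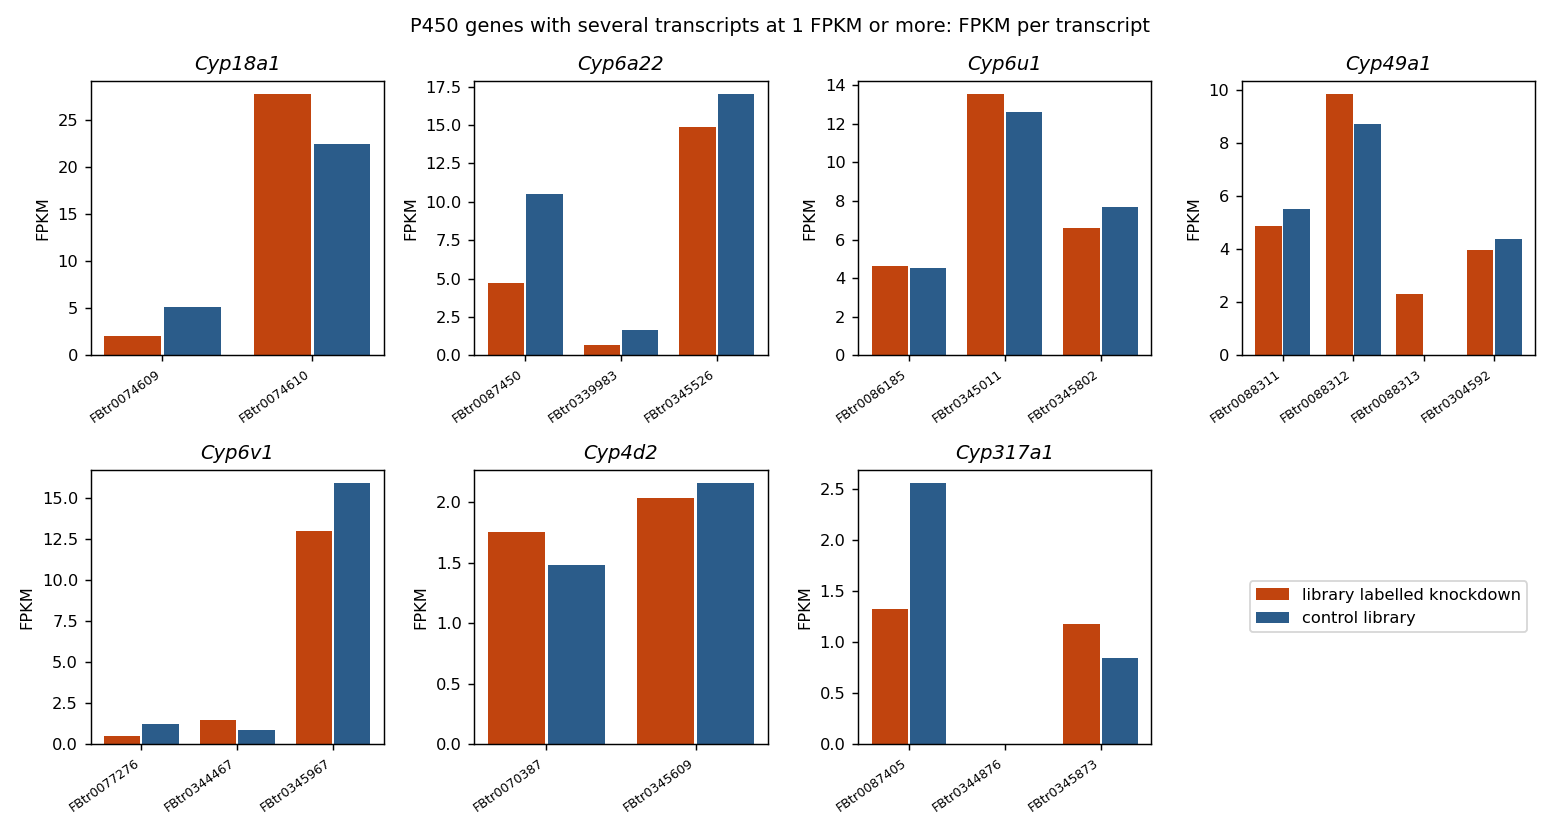
FPKM of each annotated transcript (bars) of the 7 P450 genes with more than 1 transcript at 1 FPKM or more, in each of the libraries. The shorter Cyp18a1 transcript FBtr0074609 stands at 2.03 and 5.08 FPKM, and the Cyp49a1 transcript FBtr0088313 has a visible bar only in the library labelled knockdown, at 2.31 FPKM.

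The members were alike in protein length and differed in gene structure. In the Release 6 annotation, in which 79 members were found by identifier and Cyp6a21 by symbol, the longest product of each gene had 483 to 589 residues, with a median of 509. Measured members had a median of 510 residues and the others of 506. The number of exons ran from 1 to 14 with a median of 4 in both sets. Cyp303a1, Cyp4g1, Cyp6a13 and Cyp6t1 have 1 exon, and Cyp49a1 has 14. Exons of 21 members overlap those of another gene, and for these the level is uncertain. It is not known whether strand was used in counting, and strand could not separate Cyp6u1 from Ufsp1, which lie on the same strand. By chromosome arm 24 of 32 members on 2R were measured, 9 of 14 on X, 8 of 13 on 2L, 8 of 15 on 3R and 2 of 6 on 3L.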

How the data were processed

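The deposited values are FPKM for every annotated transcript in each library, per the file headers. Reads were aligned with TopHat and transcript abundance was estimated with Cuffdiff, per the submitters' processing notes. Settings, strand handling, build and annotation were not given in the sources used here, and the coordinates match Release 5. A directional kit was used and molecules of 250 to 400 bp were kept, per the labels' protocols. The files hold no counts, so the division of fragments between overlapping genes cannot be checked.

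FPKM was summed per gene identifier over 33887 transcripts, leaving out 365 that lack a gene identifier. Groups came from the sample titles. Measured genes reached 1 FPKM in at least 1 library, and a pseudocount of 1 was added before log2. The value of 1 fragment was taken from FPKM times length in genes with 1 transcript of 1000 to 3000 nt, as the value whose single and double amounts were most filled. It was 30.0 for the library labelled knockdown against 44.3 for the control, in FPKM times nt. Exact binomial 95% intervals of ratios rest on it and cover counting error only. Fragment counts of genes with several transcripts add estimates of each. Scripts used Python 3.11.15, pandas 2.3.3, numpy 2.4.6 and scipy 1.17.1, and were tested on simulated data. Exon overlaps, chromosomal groups and transcript structures came from the Release 6 annotation.

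Genes were named if they were at 5 FPKM or more in at least 1 library, passed the size rule, led their clan, lay next to the 1 FPKM limit, or had several transcripts at 1 FPKM or more. Electron partners, P450 genes left out and Lim3 were also named, and further members were named after their values were seen. The members, clans and marker lists were chosen with earlier results of these data known.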

Additional observations from a re-analysis of the deposited data

How the results depend on the processing

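None of the 8 alternatives to the size rule put a P450 gene at 2-fold lower, while 90 to 210 of all genes were lower under them. The number of members at least 2-fold higher was 3 with a pseudocount of 0.1 (Cyp4p2, Cyp4ad1 and Cyp4p1). It was 2 with libraries rescaled to an equal FPKM sum (Cyp4p2 and Cyp4ad1) and 1 (Cyp4p2) otherwise. Among all measured genes, 177 of 10576 were higher with that pseudocount and 165 of 10608 at an equal sum, against 108 in the main setting. The log2 difference of Cyp4p2 was 1.08 with a pseudocount of 5. The members' median of 0.16 became 0.10 with a pseudocount of 5, 0.40 with an equal sum and 0.047 with no filter on low values, above 0 under each. The medians of all genes in these settings were -0.033, 0.21 and -0.027. With a 5 FPKM limit 26 and 25 members were detected. Sums over members, the library labelled knockdown first, were 762 and 576 FPKM at an equal sum, 649 and 583 FPKM with the highest transcript in place of the sum, and 719 and 668 FPKM when the P450 genes that the symbol rule leaves out were added. Of 56 genes named by rule, 16 changed the side of 0 at an equal sum, 7 with the median ratio set to 0 and 4 with the highest transcript, and none with either pseudocount. No replicate could be left out. No paired analysis was possible because each group has 1 library. Depth limits what can be said of the 29 genes below 1 FPKM.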
